A study of Arabidopsis thaliana with 9 samples.

Results

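The genes described here are the pentatricopeptide repeat (PPR) protein genes of Arabidopsis thaliana whose description in the deposited expression tables contains the word pentatricopeptide. The rule took 196 of the 18861 genes listed in any of the 3 tables. All 196 matched a protein-coding gene of the RefSeq annotation of the TAIR10.1 assembly, and each carries a PPR domain note or a PPR product name there. A further 237 listed genes carry such a note or product name under another description and are called the other PPR genes.

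PPR proteins are encoded in the nucleus and, for the most part, are imported into chloroplasts or mitochondria. There each binds a particular stretch of organelle RNA through its helical repeats, and takes part in editing, splicing, end processing, stabilisation or translation of that RNA. The family is very large in land plants, and its members are known for low transcript levels and for specific defects in photosynthesis or respiration when lost.

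RNA was measured by poly(A)-selected sequencing in 3 groups of 3 libraries. They were callus of the emf2 mutant (the emf2-1 allele, in a gene for a subunit of the Polycomb repressive complex that deposits H3K27me3), callus of wild-type Col-0, and rosette leaves of wild-type Col-0. Callus, an unorganised mass of dividing cells, was grown from cotyledons on medium with 2.2 µM 2,4-dichlorophenoxyacetic acid and 0.46 µM kinetin and was 6 to 8 weeks old, mostly kept in the dark, while leaves came from plants after 1 week on medium and 2 weeks on soil in light. Tissue, medium, light and age therefore differ together between callus and leaf and cannot be told apart, and no emf2 leaf is among the samples. The labels call the libraries biological replicates without saying whether each came from a separate culture or plant, so p-values measure the spread between these libraries.

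Reads recovered on listed genes came to between 40.1 M and 53.3 M per library. The median PPR gene had between 119.5 and 423 reads per library. EMF2 mRNA itself was at 13.0, 15.5 and 16.3 RPKM in emf2 callus, at 7.43, 6.78 and 7.55 RPKM in WT callus and at 5.50, 6.07 and 29.6 RPKM in WT leaves. A level does not show the sequence of an allele, so it does not check the genotype. Of 11 mesophyll marker genes, 4 were listed in emf2 callus, 7 in WT callus and 11 in leaves, with sums of 6.66 to 19.98, 12.2 to 301 and 73283 to 108637 RPKM per library. Of 8 markers of the root-like founder tissue of callus, 8 were listed in emf2 callus, 7 in WT callus and 2 in leaves. Some libraries stood apart from the others of their group. WT callus replicate 1 had the 301 RPKM of mesophyll markers, leaf replicate 2 had 1083 RPKM over 8 heat-shock genes against 23.0 and 41.6 RPKM in the other leaf libraries, and leaf replicate 3 had 3513 RPKM over 11 defence genes against 232 and 684 RPKM.

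The tables list a gene in a group only if its mean exceeded 1 RPKM. An RPKM here is a read count scaled by gene length and by a denominator for each library. In leaves that denominator was under the reads recovered on listed genes, as given below, so it was not a plain total of mapped reads. PPR genes were listed more widely in callus than in leaf. Of the 196, 189 were listed in emf2 callus, 188 in WT callus and 142 in leaves, or 96.4%, 95.9% and 72.4%. Among all 18861 genes the shares were 88.3%, 88.6% and 88.5%. Both calli but not leaves listed 50 PPR genes (25.5%), against 9.06% of all genes, and leaves alone listed 5 (2.55%), against 8.997% of all genes. Among the other PPR genes the shares were 26.2% in both calli but not leaves and 3.38% in leaves alone. Most callus-only PPR genes lay near the limit. Their median was 1.60 RPKM in emf2 callus and 1.52 RPKM in WT callus, 12 of the 50 had means above 2 RPKM in both calli, and 42 of the 50 were above 1 RPKM in all 6 callus libraries. With a limit of 2 RPKM in place of 1, emf2 callus would list 128 of the 196 (65.3%), WT callus 126 (64.3%) and leaves 82 (41.8%), where 79.8%, 79.5% and 80.5% of all genes would be listed.

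**Figure D1:**
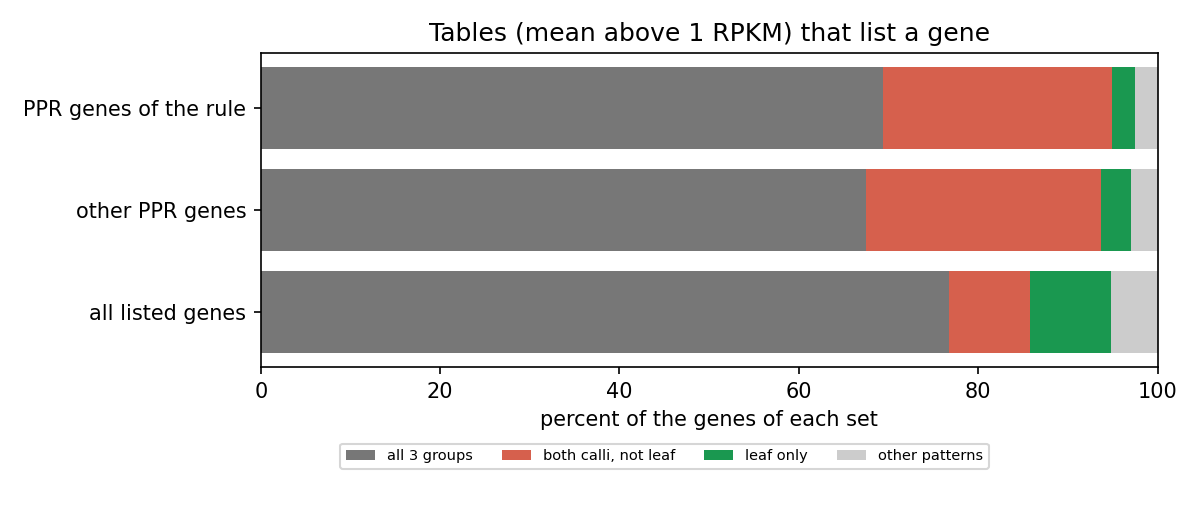
Share of genes (x axis, percent of each set) by the groups whose tables list them at a mean above 1 RPKM, for the 196 PPR genes of the rule, the 237 other PPR genes and all 18861 listed genes. The segment for both calli but not leaf is 25.5%, 26.2% and 9.06% wide.

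PPR transcripts were scarce in all groups. The median over listed PPR genes was 2.97 RPKM in emf2 callus, 2.96 RPKM in WT callus and 2.53 RPKM in leaves, where the median over all listed genes was 8.38, 8.43 and 10.5 RPKM. Between 76.7% and 79.3% of the listed PPR genes were under 5 RPKM in each group. The lengths recovered from the values equalled the gene span with introns in 1180 of 15987 genes with several exons and the summed exons in 6, so genes with long introns may read lower. Few PPR genes reached 20 RPKM, namely 3 in emf2 callus, 3 in WT callus and 10 in leaves.

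The PPR genes with the highest mean over the groups that list them were AT5G13770, AT1G77150, PPR336, AT2G30100 and AT1G19720. AT5G13770 (chromosome 5 at 4445423-4447476, plus strand, no intron, chloroplast in its note) had 150.4, 119 and 83.6 RPKM in leaves and was listed in neither callus, so its callus means were at or under 1 RPKM. AT1G77150 (chromosome 1 at 28992876-28993170, minus strand) had 37.8, 37.2 and 39.1 RPKM in emf2 callus and 51.3, 53.7 and 44.96 RPKM in WT callus, and was not listed in leaves. AT1G77150 encodes 78 residues, and AT1G77170 matches 60.3% of its bases at 95.1% identity, so reads of the pair may not be told apart.

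The first comparison asked how callus differs from leaf. It used limma on log2(RPKM + 1), and a gene was called at a Benjamini-Hochberg adjusted p under 0.05 over all genes tested. Testing needs a gene to be listed in both groups, so the callus-only and leaf-only PPR genes above are outside it. Between emf2 callus and leaf, 136 PPR genes were tested, 77 were higher in emf2 callus and 23 lower. Over all 14693 genes tested, 34.1% were higher and 31.2% lower. Between WT callus and leaf, 137 were tested, 70 were higher in WT callus and 23 lower, where over all 14780 genes 33.6% were higher and 31.8% lower. Of the other PPR genes, 73 of 162 were higher and 42 lower in emf2 callus, and 76 of 161 were higher and 43 lower in WT callus, shares between those of the PPR genes of the rule and of all genes. The median log2 fold change of the PPR genes was 0.48 in emf2 callus and 0.39 in WT callus, and that of all tested genes 0.08 and 0.06. On the log2(RPKM + 1) scale, 25 PPR genes rose and 13 fell at least 2-fold in emf2 callus, where 14.8% and 21.8% of all genes did. In WT callus 20 rose and 14 fell at least 2-fold, where 14.9% and 22.2% of all genes did. In 91 PPR genes all emf2 callus libraries were above all leaf libraries and in 23 all were below, against 38.2% and 33.9% of all genes. In 72 all WT callus libraries were above and in 23 below, against 35.8% and 33.1%. The 2 comparisons share the leaf libraries, and in bulk RNA fewer cells of a type and less RNA per cell cannot be told apart.

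The counts depended on the scale. The denominators recovered from the RPKM values were 1.18 to 1.32 times the reads on listed genes in callus and 0.587 to 0.718 times in leaves. Scaling each library to its total on listed genes instead moved the median of all genes to 0.91 in emf2 callus and 0.87 in WT callus. The PPR calls became 115 higher and 13 lower in emf2 callus, and 114 higher and 13 lower in WT callus. On that scale 64.2% of all genes were higher and 16.4% lower in emf2 callus, and 62.4% and 16.8% in WT callus, so most of the added higher calls were shared with genes at large. Relative to the median of all genes, the PPR median was then higher by 0.23 and 0.19, against 0.41 and 0.33 on the deposited scale. With quantile normalisation it was higher by 0.13 and 0.12, and 61 PPR genes (44.9%) were higher and 24 (17.65%) lower in emf2 callus, against 39.9% and 27.9% of all genes. In WT callus 59 (43.1%) were then higher and 23 (16.8%) lower, against 38.8% and 28.2%. Among genes under 5 RPKM in both groups, where most PPR genes lie, 60.8% of 79 PPR genes were higher in emf2 callus, against 32.7% of 2208 genes, and 54.2% of 83 were higher in WT callus, against 31.4% of 2253 genes. Among genes with at least 5 RPKM in 1 group, 29 of 57 PPR genes were higher in emf2 callus and 19 lower, against 34.3% and 35.2% of genes. In WT callus 25 of 54 were higher and 19 lower, against 34.0% and 35.6%, so at these levels the share of lower calls was near that of all genes.

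The largest rises in callus, in PPR336 and PPR596, were in genes with known mitochondrial roles. PPR336 (AT1G61870, chromosome 1 at 22864951-22866666), which associates with mitochondrial ribosomes, had 48.0, 46.3 and 54.0 RPKM in emf2 callus, 45.1, 59.1 and 48.7 RPKM in WT callus, and 9.44, 13.5 and 7.63 RPKM in leaves. Every callus library was above every leaf library, and the calli overlapped. The log2 fold change was 2.20 ± 0.20 in emf2 callus (SE; limma adjusted p = 3.15e-05) and 2.24 ± 0.20 in WT callus (limma adjusted p = 2.95e-05).

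PPR596 (AT1G80270, chromosome 1 at 30180907-30183561), which affects the editing of the mitochondrial rps3 transcript although its note places it in the chloroplast envelope, had 18.9, 16.0 and 18.6 RPKM in emf2 callus, 14.2, 17.1 and 13.9 RPKM in WT callus, and 2.46, 4.16 and 2.15 RPKM in leaves. Its log2 fold change was 2.30 ± 0.19 in emf2 callus (limma adjusted p = 2.02e-05) and 2.07 ± 0.19 in WT callus (limma adjusted p = 3.75e-05). AT4G35850 (chromosome 4 at 16983525-16986967, 12 introns) had 20.4, 19.0 and 23.7 RPKM in emf2 callus, 19.99, 21.9 and 25.6 RPKM in WT callus, and 4.25, 5.38 and 5.61 RPKM in leaves. It rose by 1.86 ± 0.15 and 1.95 ± 0.15 on the log2 scale in emf2 and WT callus. For both genes the callus libraries lay above all leaf libraries.

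Promoters of these 3 genes, and of the 2 genes that fell most in WT callus, are shown from 250 bases before to 50 bases after the annotated start, to set promoters of the genes that moved most in each direction side by side. Capitals mark every TGGGCC or TGGGCT on either strand (site II elements, known from genes active in dividing cells and from genes for mitochondrial proteins) and AAACCCTA (the telo-box) on either strand. Sequences are of TAIR10.1 from RefSeq, written along the gene's strand.
PPR336 (chr1:22866617-22866916, minus strand): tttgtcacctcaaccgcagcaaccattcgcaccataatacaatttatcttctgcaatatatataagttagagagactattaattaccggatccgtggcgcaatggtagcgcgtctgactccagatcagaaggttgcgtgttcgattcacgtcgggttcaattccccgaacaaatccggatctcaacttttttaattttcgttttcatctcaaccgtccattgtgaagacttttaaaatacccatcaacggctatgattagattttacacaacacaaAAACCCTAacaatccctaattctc
PPR596 (chr1:30180657-30180956, plus strand): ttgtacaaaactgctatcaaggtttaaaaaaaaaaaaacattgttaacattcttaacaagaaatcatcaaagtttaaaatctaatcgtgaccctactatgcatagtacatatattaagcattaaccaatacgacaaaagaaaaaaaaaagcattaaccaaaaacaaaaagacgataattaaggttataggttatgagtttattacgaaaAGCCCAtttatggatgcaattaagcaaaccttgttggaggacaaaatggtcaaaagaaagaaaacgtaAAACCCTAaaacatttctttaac
AT4G35850 (chr4:16983275-16983574, plus strand): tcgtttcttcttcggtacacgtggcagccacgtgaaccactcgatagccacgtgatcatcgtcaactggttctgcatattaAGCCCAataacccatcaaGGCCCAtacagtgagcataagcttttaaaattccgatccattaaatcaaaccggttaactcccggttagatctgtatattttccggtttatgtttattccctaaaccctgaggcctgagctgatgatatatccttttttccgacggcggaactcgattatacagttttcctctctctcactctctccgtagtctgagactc
AT1G19720 (chr1:6822662-6822961, minus strand): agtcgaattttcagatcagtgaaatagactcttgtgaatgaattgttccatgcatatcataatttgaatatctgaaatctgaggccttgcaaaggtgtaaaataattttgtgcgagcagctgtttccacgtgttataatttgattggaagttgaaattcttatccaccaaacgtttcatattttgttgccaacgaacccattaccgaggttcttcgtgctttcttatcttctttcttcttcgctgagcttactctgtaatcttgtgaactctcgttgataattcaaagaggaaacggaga
AT2G30100 (chr2:12847268-12847567, plus strand): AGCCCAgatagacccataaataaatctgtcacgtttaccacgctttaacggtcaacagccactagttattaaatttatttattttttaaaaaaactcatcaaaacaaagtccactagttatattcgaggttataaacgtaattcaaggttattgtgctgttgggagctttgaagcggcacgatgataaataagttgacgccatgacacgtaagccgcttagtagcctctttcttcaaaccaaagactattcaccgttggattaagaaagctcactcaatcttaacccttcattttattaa

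PPR336 and PPR596 each carry AAACCCTA just after the start, at positions 26 and 27, and AT4G35850 holds the site II letters in 2 places. The window of PPR336 also covers a tRNA-Trp gene (AT1G61880, chromosome 1 at 22866758-22866829, minus strand). AT1G19720 holds none of the motifs and AT2G30100 holds 1 at the far end. Of the 196 PPR promoters, 34.2% held TGGGCC or TGGGCT and 9.18% held AAACCCTA, against 36.7% and 13.9% of the other PPR promoters and 26.1% and 5.67% of 18545 promoters of listed protein-coding genes. Where TGGGCC is followed by CA, it overlaps its own match on the other strand. Of the tested PPR genes with TGGGCC or TGGGCT, 30 of 53 were higher in emf2 callus and 28 of 53 in WT callus, where 41.9% and 42.8% of all genes with the motif were. Of the PPR genes with neither, 47 of 83 and 42 of 84 were higher. The 14 tested PPR genes with AAACCCTA included 11 called higher in emf2 callus and 10 in WT callus, with none called lower in either. Of all genes with AAACCCTA, 57.0% of 838 were higher and 14.8% lower in emf2 callus, and 56.1% of 847 were higher and 15.7% lower in WT callus. Of the 22 other PPR genes with it, 14 and 15 were higher and 3 were lower in each callus. A match is a run of letters and not a shown binding site.

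Further PPR genes rose by smaller amounts. AT5G15980 (mitochondrion in its note) had 16.4, 14.4 and 17.41 RPKM in emf2 callus, 15.5, 16.7 and 16.0 RPKM in WT callus, and 5.47, 5.84 and 4.36 RPKM in leaves. AT4G02820 had 11.3, 9.56 and 11.5 RPKM in emf2 callus, 10.6, 13.1 and 11.5 RPKM in WT callus, and 4.39, 4.18 and 2.43 RPKM in leaves. AT2G38420, AT1G13040 and AT3G54980 reached means of 6.11, 4.77 and 6.69 RPKM in emf2 callus and 6.34, 4.84 and 5.97 RPKM in WT callus, over 1.62, 1.30 and 1.88 RPKM in leaves. In WT callus these 5 genes rose by 1.27 to 1.49 on the log2 scale. AT1G06270, which entered by its rise in emf2 callus, had 6.97, 7.63 and 5.88 RPKM in emf2 callus, 4.56, 6.07 and 4.36 RPKM in WT callus, and 1.57, 2.07 and 1.57 RPKM in leaves. In each of these 6 genes all callus libraries were above all leaf libraries. AT3G54980 shares 544 bases with a neighbouring gene and AT1G13040 shares 289, so part of their reads could be the neighbour's.

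Among PPR genes with a mitochondrial role in the lists used here, COD1 (AT2G35030), needed for editing of transcripts of cytochrome c oxidase, had 3.46, 2.60 and 2.96 RPKM in emf2 callus, 3.02, 3.30 and 3.16 RPKM in WT callus, and 1.14, 0.945 and 1.27 RPKM in leaves. PPR40 (AT3G16890), whose note ties it to electron transport through complex III and to abscisic acid responses, had 2.91, 3.02 and 2.62 RPKM in emf2 callus, 2.77, 3.48 and 2.49 RPKM in WT callus, and 1.25, 0.928 and 1.15 RPKM in leaves. COD1 rose by 0.92 ± 0.12 and 0.98 ± 0.12, and PPR40 by 0.87 ± 0.13 and 0.89 ± 0.13, in emf2 and WT callus (limma adjusted p between 1.94e-04 and 5.66e-04). RPF7 (AT2G28050), which processes the 5′ end of nad2 mRNA, was not called, with means of 2.34, 1.76 and 1.62 RPKM in emf2 callus, WT callus and leaves. MEF12 and MEF32, mitochondrial editing factors, were listed in the calli only, at 1.96 and 1.75 RPKM in emf2 callus and 2.02 and 1.46 RPKM in WT callus. The editing factor MEF8S rose to 5.28 RPKM in emf2 callus and 5.94 RPKM in WT callus, against 2.97 RPKM in leaves, and SOAR1 (a negative regulator of abscisic acid signalling) to 6.41 and 6.97 RPKM, against 2.67 RPKM in leaves. Neither was chosen by the rule for named genes; both were picked afterwards for their annotated names.

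**Figure D2:**
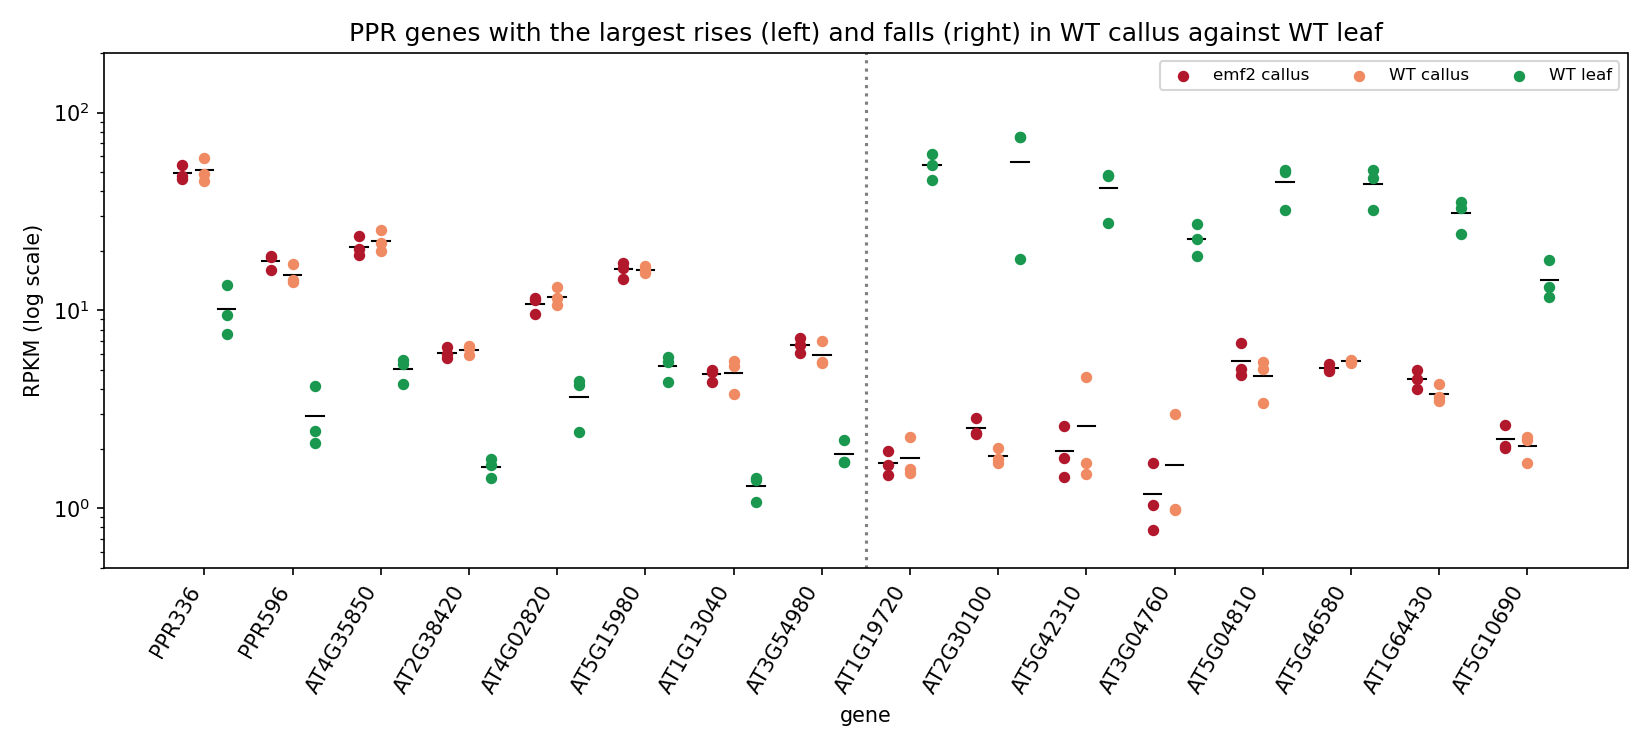
RPKM per library (y axis, log scale) of the 8 PPR genes with the largest rises and the 8 with the largest falls among those called in WT callus against leaf; points are libraries (emf2 callus, WT callus, leaf, from left to right in each gene) and bars are means of 3. On the left, PPR336 averaged 49.4, 51.0 and 10.2 RPKM; on the right, AT1G19720 averaged 1.69, 1.80 and 54.0 RPKM.

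The falls were fewer and larger than the rises, and 7 of the 8 largest in WT callus were genes with a chloroplast note. AT1G19720 (chromosome 1 at 6819564-6822711, minus strand, a protein of the DYW class) had 1.47, 1.96 and 1.65 RPKM in emf2 callus, 2.30, 1.57 and 1.51 RPKM in WT callus, and 54.2, 62.1 and 45.8 RPKM in leaves. It fell by 4.35 ± 0.16 on the log2 scale in emf2 callus (limma adjusted p = 4.46e-07) and by 4.30 ± 0.16 in WT callus (limma adjusted p = 4.67e-07). AT2G30100 had 2.40, 2.87 and 2.37 RPKM in emf2 callus, 2.02, 1.70 and 1.78 RPKM in WT callus, and 75.2, 75.1 and 18.1 RPKM in leaves. Its leaf replicate 3, the library with high defence genes, was well under the others, and without it the WT callus change was -4.75 in place of -4.08.

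AT5G42310 had 1.79, 2.61 and 1.44 RPKM in emf2 callus, 4.61, 1.69 and 1.496 RPKM in WT callus, and 48.4, 48.1 and 27.8 RPKM in leaves. AT3G04760 had 1.04, 1.70 and 0.779 RPKM in emf2 callus, 2.98, 0.988 and 0.980 RPKM in WT callus, and 27.2, 18.8 and 22.9 RPKM in leaves. In both genes WT callus replicate 1, the callus library with the most mesophyll marker RNA, was the highest callus library. The part of that marker RNA in these values was not tested; without that library the log2 fold changes in WT callus were -3.99 and -3.58, in place of -3.62 and -3.25.

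AT5G04810 (9 introns) had 5.07, 6.81 and 4.73 RPKM in emf2 callus, 5.05, 5.48 and 3.41 RPKM in WT callus, and 51.1, 49.8 and 32.3 RPKM in leaves. AT5G46580 had 5.36, 4.96 and 5.06 RPKM in emf2 callus, 5.55, 5.43 and 5.65 RPKM in WT callus, and 51.4, 46.8 and 32.0 RPKM in leaves. AT1G64430 (11 introns, no location in its note) had 4.52, 5.01 and 3.99 RPKM in emf2 callus, 3.66, 4.24 and 3.48 RPKM in WT callus, and 33.0, 35.5 and 24.3 RPKM in leaves. The callus and leaf libraries of these 3 genes lay far apart, and leaf replicate 3 was the lowest leaf library in each. In WT callus they fell by 3.00 ± 0.23, 2.74 ± 0.17 and 2.72 ± 0.16 on the log2 scale. AT5G10690, which also has a CBS domain, averaged 2.24 RPKM in emf2 callus, 2.06 RPKM in WT callus and 14.3 RPKM in leaves, and shares 775 bases with other genes. AT1G18485, a DYW-class protein, averaged 1.01 RPKM in emf2 callus, 1.14 RPKM in WT callus and 8.64 RPKM in leaves.

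Calls differed in direction with the location in the gene notes. The notes place 19 of the 196 in the chloroplast and 18 in the mitochondrion, name another location for 18 and give none for 141. Of 18 chloroplast genes tested, 11 fell and 2 rose in each callus, with a median log2 fold change of -0.78 in emf2 callus and -0.73 in WT callus. All genes with a chloroplast note fell in 57.8% of 1864 tests in emf2 callus and 58.9% of 1904 in WT callus, which is near the 61.1% of the PPR genes. Scaled to library totals, 8 chloroplast PPR genes (44.4%) rose and 8 fell in each callus. Of all genes with a chloroplast note, 39.8% then rose and 41.7% fell in emf2 callus, and 37.4% and 42.5% in WT callus. The medians of the chloroplast PPR genes were 0.02 and 0.06, that is, 0.89 and 0.81 under the median of all genes. Of 12 mitochondrial PPR genes tested, 11 rose in emf2 callus and 10 in WT callus, none was called lower, and the medians were 0.72 and 0.73. All genes with a mitochondrial note rose in 36.0% and fell in 27.9% of 491 tests in emf2 callus. In WT callus they rose in 38.0% and fell in 22.3% of 489 tests. Of 13 other PPR genes with such a note, 5 rose and 3 fell in emf2 callus, and 6 rose and 2 fell in WT callus, with medians of 0.31 and 0.30. In the 18 chloroplast PPR genes listed everywhere, the median of WT callus replicate 1 was 4.198 RPKM, against 3.17 and 3.29 RPKM in the other WT callus libraries.

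**Figure D3:**
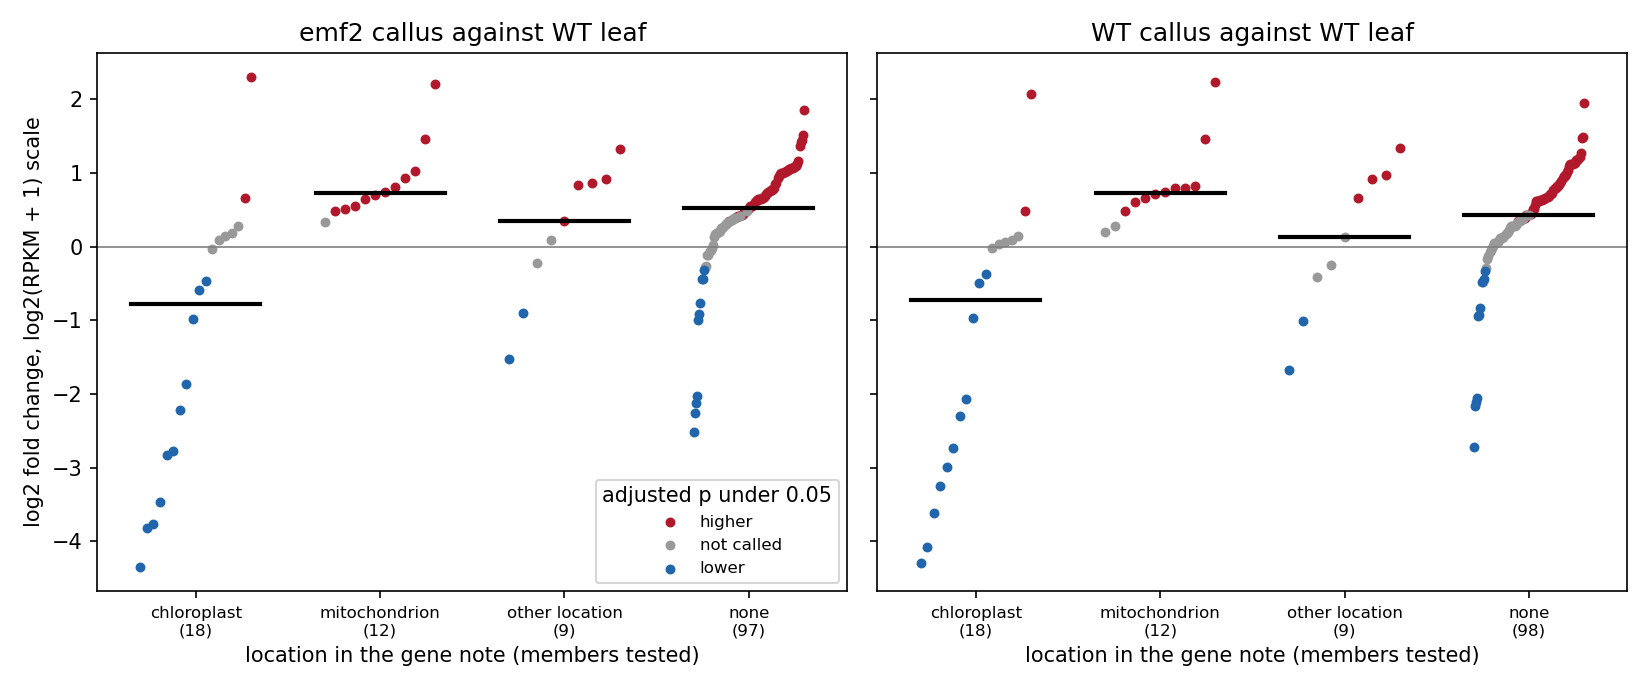
Log2 fold change on the log2(RPKM + 1) scale (y axis) of each tested PPR gene by the location in its note (x axis), for emf2 callus against leaf (left panel) and WT callus against leaf (right panel); colour gives the call at a limma adjusted p under 0.05 and black bars are medians. Medians of chloroplast genes are -0.78 and -0.73, and those of mitochondrial genes 0.72 and 0.73.

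Calls were also counted by gene structure. Most PPR genes are intronless, 126 of the 196 (64.3%), while 14.7% of all listed protein-coding genes are. Of the 20 tested PPR genes with at least 2 introns, 12 fell and 5 rose in emf2 callus, and 12 fell and 4 rose in WT callus. Among all genes with at least 2 introns, 30.4% fell in emf2 callus and 31.0% in WT callus. Of the tested intronless PPR genes, 51 of 83 rose in emf2 callus and 46 of 84 in WT callus, where 33.0% and 32.3% of all intronless genes rose. Scaled to library totals, 9 of the 20 PPR genes with at least 2 introns rose and 7 fell in each callus, where 66.3% of all genes with at least 2 introns rose and 15.0% fell in emf2 callus, and 64.5% and 15.7% in WT callus. The DYW class was set here by 1 form of the cytidine deaminase-like signature in the last 120 residues of the translated gene. That form is HxEKxA followed by CxxC, where x is any residue, and it held 18 of the 196. Of the 196, 16 end in the residues DYW. AT1G09410 and AT1G56690 are among these but not among the 18, so the class leaves out some DYW proteins. Of its 9 genes tested, 4 rose (44.4%) and 3 fell (33.3%) in each callus. Of all genes, 34.1% rose and 31.2% fell in emf2 callus, and 33.6% and 31.8% in WT callus. Of the other PPR genes of the DYW class, 6 of 12 rose and 2 fell in emf2 callus, and 7 of 13 rose and 2 fell in WT callus.

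The lists of other genes of organelle RNA metabolism were counted the same way. Only symbols matched to a gene by name are counted, so the lists are incomplete. The processing lists also hold PPR genes with other roles, such as PTAC2, PPR336 and PPR40. Matched were 14 of 16 chloroplast editing, 14 of 27 chloroplast processing, 26 of 36 mitochondrial editing and 14 of 30 mitochondrial processing symbols. So were 10 of 23 editing cofactors, 23 of 33 splicing factors and nucleases, and 17 of 21 transcription symbols. Of all tested genes, 34.1% rose and 31.2% fell in emf2 callus, and 33.6% and 31.8% in WT callus. Of 13 matched genes of the chloroplast processing list tested, 10 fell and 0 rose in emf2 callus, and 10 fell and 1 rose in WT callus. None of these 13 is of the rule. Symbols such as CRP1, SOT1 and PPR4 found no gene, so the rule may still hold factors of this list. PGR3, which stabilises and activates chloroplast petL mRNA, averaged 1.02 RPKM in emf2 callus, 1.17 RPKM in WT callus and 17.3 RPKM in leaves. PTAC2, a component of the plastid transcription complex, averaged 1.80, 1.87 and 11.9 RPKM. CRR2, which processes chloroplast ndhB transcripts, was the one called higher in WT callus, at 6.79 RPKM in emf2 callus, 8.08 RPKM in WT callus and 5.74 RPKM in leaves. Of the chloroplast editing factors, 5 of 8 fell in emf2 callus and 5 of 9 in WT callus, and CLB19 alone rose in each.

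Of the 11 mitochondrial editing factors tested, 7 rose and none was called lower in each callus. Of 13 genes of the mitochondrial processing list, 8 rose and 1 fell in emf2 callus, and 9 rose and 1 fell in WT callus. BIR6, a splicing factor of mitochondrial nad7, averaged 5.48 RPKM in emf2 callus, 6.27 RPKM in WT callus and 1.32 RPKM in leaves. RPF6, which processes the 5′ end of mitochondrial nad6 mRNA, was the one that fell, at 4.79, 5.12 and 7.38 RPKM. These 2 lists hold 7 of the PPR genes above, COD1, PPR40, PPR336, PPR596, RPF7, MEF12 and MEF32. Without them 6 of 10 genes of the editing list and 5 of 9 of the processing list rose in emf2 callus. Among the protein-only RNase P enzymes, PRORP1 of the organelles fell to 4.71 RPKM in emf2 callus and 5.43 RPKM in WT callus, against 25.3 RPKM in leaves, while the nuclear PRORP2 rose to 12.8 and 10.5 RPKM, against 4.76 RPKM in leaves.

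Among proteins that are not of the PPR family, 15 of 15 tested genes of plastid transcription fell in each callus. The sigma factor SIG6 averaged 1.53 RPKM in emf2 callus, 1.60 RPKM in WT callus and 56.1 RPKM in leaves. The editing cofactors split 5 and 5 in each callus. MORF1 and MORF8, which act in mitochondrial editing (MORF8 in chloroplasts too), rose to 30.4 and 108 RPKM in emf2 callus and 30.5 and 120.4 RPKM in WT callus, against 7.78 and 33.7 RPKM in leaves. MORF9, of chloroplasts, fell to 6.85 RPKM in emf2 callus and 7.10 RPKM in WT callus, against 42.6 RPKM in leaves. Of 21 splicing factors and nucleases of the organelles, 7 rose and 13 fell in each callus. The mitochondrial helicase PMH1 rose to 32.8 RPKM in emf2 callus and 36.8 RPKM in WT callus, against 6.41 RPKM in leaves, and the chloroplast helicase RH3 fell to 16.1 and 16.6 RPKM, against 192 RPKM in leaves. Scaled to library totals, 3 chloroplast editing factors rose and 4 fell in each callus, and 11 genes of plastid transcription fell and 1 rose. Of the 13 genes of the chloroplast processing list, 3 rose and 5 fell in emf2 callus, and 3 rose and 4 fell in WT callus. Of the 21 splicing factors and nucleases, 9 rose and 6 fell in emf2 callus, and 8 rose and 6 fell in WT callus. On that scale the medians of the editing cofactors and of the splicing factors turned positive, at 0.42 and 0.14 in emf2 callus and 0.31 and 0.15 in WT callus. The median of all genes was then 0.91 in emf2 callus and 0.87 in WT callus. Relative to it the 2 lists lay at -0.49 and -0.78 in emf2 callus and at -0.56 and -0.72 in WT callus. Of all genes, 64.2% were then higher and 16.4% lower in emf2 callus, and 62.4% and 16.8% in WT callus.

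**Figure D4:**
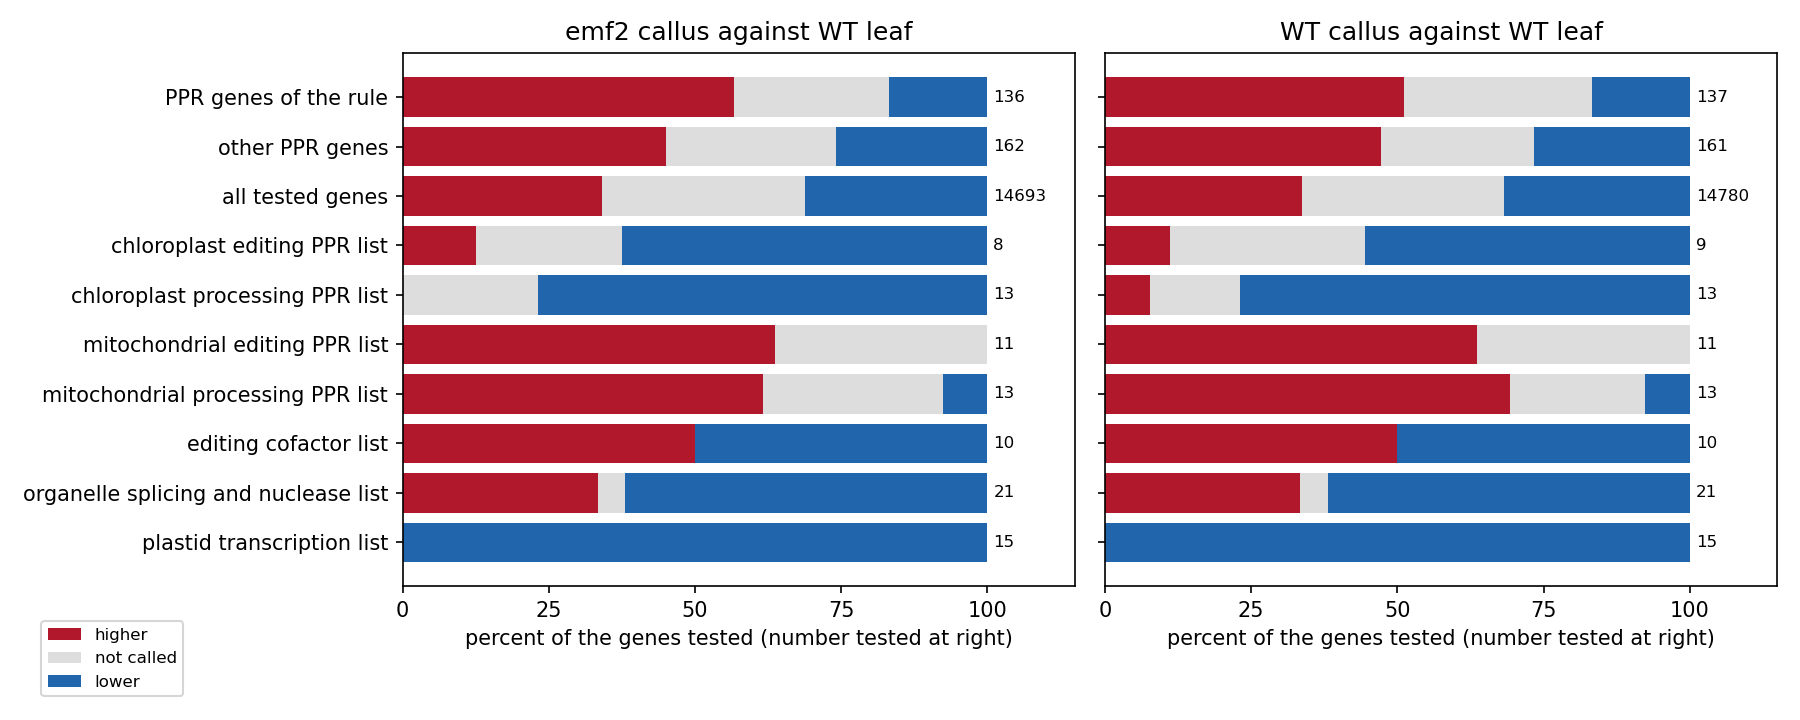
Percent of tested genes (x axis; number tested at the right of each bar) called higher, not called and called lower at a limma adjusted p under 0.05, for the PPR genes of the rule, the other PPR genes, all tested genes and the lists of organelle RNA genes (rows), in emf2 callus against leaf (left panel) and WT callus against leaf (right panel). PPR genes of the rule were higher in 56.6% and 51.1%, all genes in 34.1% and 33.6%.

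The second comparison asked what loss of EMF2 changes within callus. No PPR gene was called between emf2 and WT callus. Of the 186 tested, limma called 0, where of all 16185 genes it called 0.068% higher and 0.0309% lower, and 2 PPR genes had an unadjusted p under 0.05 (1.08%), against 9.002% of all genes. The lowest adjusted p among PPR genes was 0.477. The median log2 fold change was 0.04, and single changes ran between -0.38 and 0.41. On the log2(RPKM + 1) scale, the 95% interval of the change lay within -1 to 1 for 184 of the 186 genes. It lay within -0.58 to 0.58 for 160. These bounds are folds of RPKM + 1 and stand for larger folds of RPKM in low genes, and 139 of the genes were under 5 RPKM in both calli. In 14 genes all emf2 libraries were above all WT callus libraries and in 5 all were below, or 7.53% and 2.69%, against 9.69% and 8.89% of all genes.

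The 2 genes with an unadjusted p under 0.05 were AT1G77150, described above, with a log2 fold change of -0.38 (95% interval -0.70 to -0.06), and AT1G06270, with 0.39 (0.03 to 0.74). AT1G77150 was lower in all emf2 libraries than in any WT callus library, and the libraries of AT1G06270 overlapped. PPR336, at -0.04, had an interval of -0.50 to 0.43, PPR596 one of -0.21 to 0.68, and MEF8S one of -0.61 to 0.31. Genes listed in 1 callus only were all near the limit. AT1G63080, a locus noted as giving trans-acting siRNAs, averaged 1.27 RPKM, AT2G33760 1.04 RPKM and AT1G31430 1.01 RPKM in emf2 callus. WT callus alone of the calli listed AT5G41170 at 1.22 RPKM and AT1G52640 at 1.03 RPKM. Each of these 5 means was under 1.3 RPKM, so a small shift moves a gene in or out of a table.

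**Figure D5:**
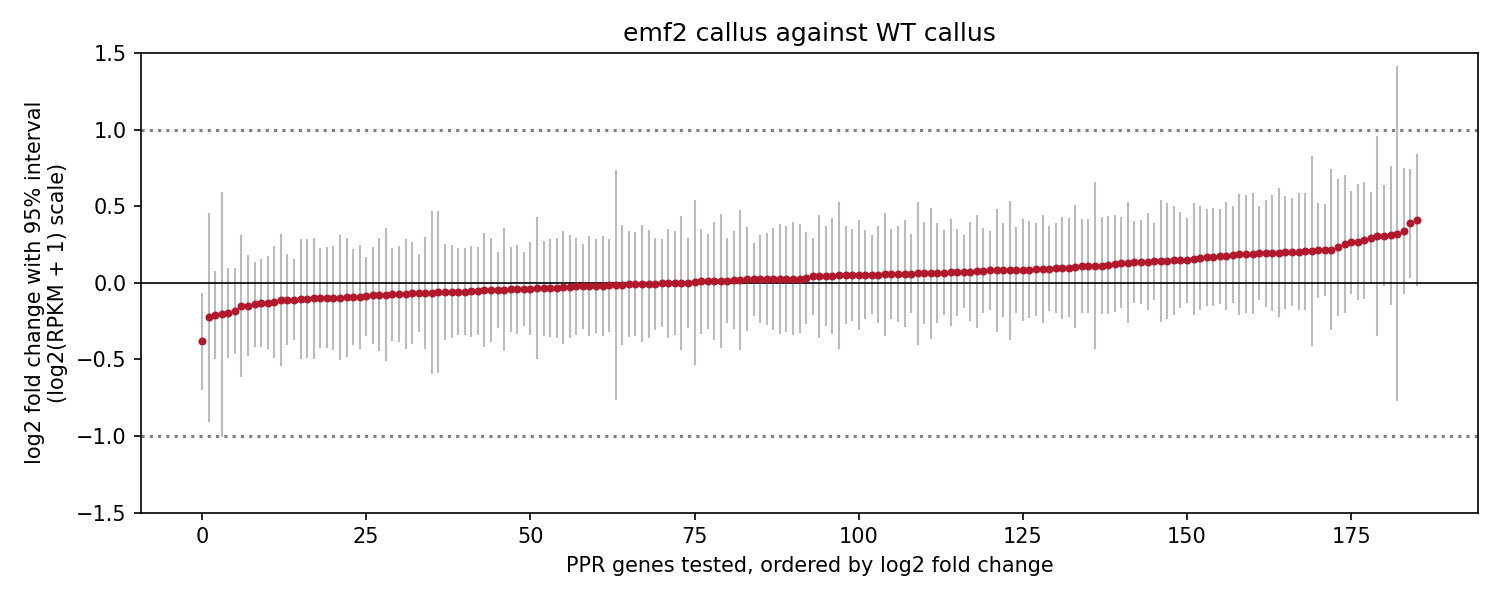
Log2 fold change of emf2 callus against WT callus on the log2(RPKM + 1) scale (y axis; points) with its 95% interval from limma (grey lines) for each of the 186 tested PPR genes in order of size (x axis). Dotted lines mark 2-fold changes of RPKM + 1, which are larger folds of RPKM in low genes. Changes run from -0.38 to 0.41.

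Genes listed in leaves alone were AT5G13770, AT5G27300, AT5G15340, AT4G01030 and AT5G14350. The last 4 had leaf means of 1.52 to 3.20 RPKM, and their highest single library was at 4.29 RPKM, in AT5G27300. The 4 highest of the 50 callus-only genes were AT1G77150, AT2G37310, AT3G09060 and AT5G37570. AT2G37310 had 3.13, 3.09 and 3.36 RPKM in emf2 callus and 3.58, 3.39 and 3.61 RPKM in WT callus. AT3G09060 had 2.85, 2.90 and 2.75 RPKM in emf2 callus and 3.77, 3.49 and 3.06 RPKM in WT callus, and AT5G37570 averaged 2.80 and 3.01 RPKM in emf2 and WT callus.

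The spread between libraries of a group was widest in leaves. The highest library was a median of 1.196 times the lowest in emf2 callus, 1.27 times in WT callus and 1.46 times in leaves, and the ratio exceeded 2 for 1, 4 and 13 PPR genes. Copies limit some values. Of the 196, 14 have another gene of at least 90% identity over at least 50% of their length, and 26 share at least 500 bases with an overlapping gene. Of the 12 tested genes with such a copy, 4 rose and 1 fell in each callus. Among the tested genes with no base shared, 51 of 86 rose and 14 fell in emf2 callus, and 46 of 87 rose and 14 fell in WT callus. Of all tested genes, 34.1% rose and 31.2% fell in emf2 callus, and 33.6% and 31.8% in WT callus.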

How the data were processed

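Per the labels' protocols, poly(A) RNA was used with the TruSeq RNA V2 kit, 15 cycles of PCR and Illumina sequencing, 4 libraries to a lane. The submitters' processing notes name FastQC, cutadapt, TopHat and the TAIR10 build; the read counter and the use of strand are not given in the sources used here. The authors deposited RPKM values, 1 table per group, listing genes with a mean above 1 RPKM per the file headers. Reads and denominators were recovered from steps in the values: with a length tolerance of 1e-04 bases, 18808 of 18861 genes (99.7%) gave a whole length, which for genes with introns more often equalled the start-to-end span (1180) than the summed exons (6). The values were normalised by the authors, and comparisons set them side by side across tables. Whether this was done per table or over all libraries together was not tested. Scaling to library totals replaces the deposited denominators, and so sets aside any adjustment between libraries that those denominators hold.

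Genes listed in both groups were tested with limma 3.58.1 (R 4.3.3; eBayes with trend) on log2(RPKM + 1), with 1 fit over 3 groups and Benjamini-Hochberg adjustment over all genes of a comparison. Fold changes on that scale understate low genes. The procedure was tested on simulated data with known changes added only above a minimum level, so recovery in the lowest genes was not tested. Named genes were the 8 largest rises and 8 largest falls per comparison among called genes whose libraries did not overlap, called genes of the PPR lists (up to 4 per list), up to 4 genes per direction listed in 1 group only, and the 5 with the highest mean; MEF8S, SOAR1, RPF7, MEF12, MEF32 and genes outside the rule were named afterwards. The PPR genes and the gene lists were chosen with earlier results of these data known, so no count over a list is independent evidence. Locations come from the notes in the RefSeq annotation (TAIR10.1), copies from BLAST 2.17.0, and promoters run 250 bases before to 50 bases after the start. A PPR gene had at least 24 recovered reads in a library that lists it. Alternatives were other pseudocounts (0.1 and 0.5), a mean of at least 5 RPKM, other scalings, other fits and leaving out each library.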

Additional observations from a re-analysis of the deposited data

How the results depend on the processing

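Each of the 36 changes of single named genes kept its direction and its call under every alternative that gave a value; 5 of them had no value with the filter at 5 RPKM. No PPR gene was called between emf2 and WT callus under any alternative. Against leaf, leaving out each library gave 66 to 79 higher and 17 to 23 lower calls in emf2 callus, and 60 to 73 and 17 to 24 in WT callus. With all libraries, 34.1% of all genes were higher and 31.2% lower in emf2 callus, and 33.6% and 31.8% in WT callus. Requiring a mean of at least 5 RPKM in 1 group left 57 and 54 PPR genes tested and 29 and 25 called higher, with medians of 0.40 and 0.24. Scaling to library totals gave 115 and 114 higher, 13 and 13 lower, and medians of 1.14 and 1.06, where all genes had medians of 0.91 and 0.87 and were higher in 64.2% and 62.4%. A pseudocount of 0.1 gave medians of 0.67 and 0.58. In emf2 callus, quantile normalisation gave a median of 0.32, against 0.19 for all genes, and centring on the median gene one of 0.57, against 0.20. A limit of 2 RPKM in place of 1 left 128 PPR genes listed in emf2 callus, 126 in WT callus and 82 in leaves. The cause of the shifts from scaling and pseudocount was not tested.

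Replicate numbers were not used to pair the samples. The correlation of same-numbered libraries' deviations ran from -0.209 to 0.613, under 0.1 in 1 or more pairs of each comparison. Between the calli it was -0.209, 0.182 and 0.613 for replicates 1, 2 and 3. Callus libraries of different numbers ran from -0.496 to 0.327, with 0.327 and 0.325 between replicates 1 and 2. Whether callus libraries shared a batch was not tested. A fit with the replicate number as a block gave 73 higher and 20 lower PPR genes in emf2 callus and 69 higher and 20 lower in WT callus against leaf, and 0 between the calli. In that fit 33.8% of all genes were higher and 31.4% lower in emf2 callus, and 33.5% and 31.9% in WT callus. The least covered PPR gene rested on 24 reads in a library. Of 79 PPR genes under 5 RPKM in both emf2 callus and leaf, 48 were still called higher, 7 of them at least 2-fold. Of all 2208 genes in that range, 722 (32.7%) were called higher, 140 of them at least 2-fold.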

Other observations

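The PPR genes are spread over all 5 chromosomes, with 66 on chromosome 1, 26 on chromosome 2, 36 on chromosome 3, 19 on chromosome 4 and 49 on chromosome 5, or 1.32%, 0.906%, 0.964%, 0.668% and 1.12% of the listed genes there. Within 50000 bases of each other, 3 runs of 3 PPR genes occurred, on chromosome 4 (AT4G14170, AT4G14190 and AT4G14200) and chromosome 5 (AT5G15280, AT5G15300 and AT5G15340; AT5G43790, AT5G43820 and AT5G43822). In the second of these runs AT5G15340 was listed in leaves alone.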
